A study of Mus musculus with 6 samples.

Results

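Acyl-CoA synthetases are the enzymes that attach a fatty acid to coenzyme A, and their expression was examined in the inguinal white adipose tissue (IWAT) of mice that carry 1 copy of a truncated *Ebf2*. The 10 genes described are *Acsm3* and *Acsm5* of the medium-chain family (ACSM), *Acsl1*, *Acsl3*, *Acsl4*, *Acsl5*, and *Acsl6* of the long-chain family (ACSL), and *Acss1*, *Acss2*, and *Acss3* of the short-chain family (ACSS), 10 of the 55491 genes in the count table. They were chosen by gene symbol after the genotype differences of these same libraries were known, so their differences between genotypes are given as a description and support no claim about the families. RNA was sequenced from 6 male C57BL/6J mice at 4 weeks of age, 1 library per mouse, 3 with 2 intact alleles (*Ebf2+/+*) and 3 heterozygous for a knock-in stop codon (*Ebf2E165X/+*). *Ebf2* encodes early B cell factor 2, a transcription factor of the adipocyte lineage. The allele was made by CRISPR/Cas9 editing and is present in every cell of the body, so an effect arising in another tissue cannot be told apart from one arising in the adipocyte. Nothing in the labels places the mice in litters or batches.

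A free fatty acid enters almost no pathway until a synthetase has joined it to coenzyme A at the cost of ATP. The resulting acyl-CoA is then carried into mitochondria for oxidation, esterified into triglyceride, elongated, or hydrolyzed again by a thioesterase. The families differ in the chain length they prefer and the enzymes within them differ in location. In white adipose tissue the long-chain enzymes serve both triglyceride storage and oxidation, whereas the short-chain enzymes convert acetate and propionate.

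The deposited values are expected counts, the estimated number of fragments per gene. Total counts per library ran from 106820505 to 135039488, and they overlapped between genotypes (*P* = 0.9 in a two-sided exact permutation test of group means, which cannot give less than 0.1 here). Levels are given as CPM, counts relative to the library total, after scaling the libraries with TMM factors, and differences as log2 fold changes of *Ebf2E165X/+* against *Ebf2+/+* from edgeR's quasi-likelihood fit over 32664 genes, with Benjamini-Hochberg adjustment over all of them. Calls required both a linear fold change above 1.5 and, after adjustment, a *P* below 0.05. *Ebf2* itself stood at 38.3, 41.3, and 37.2 CPM in the *Ebf2+/+* mice and at 22.8, 22.9, and 21.1 CPM in the *Ebf2E165X/+* mice. Its log2 fold change was −0.81 (SE 0.08; edgeR adjusted *P* = 0.0596, DESeq2 1.23e-13), and every *Ebf2E165X/+* library was below every *Ebf2+/+* library.

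The levels of cell type markers differed among the libraries. All 7 adipocyte markers were detected, and their summed level was 11420, 12180, and 9649 CPM in *Ebf2+/+* mice and 10360, 8920, and 6739 CPM in *Ebf2E165X/+* mice, with *Fabp4*, a fatty acid binding protein, the most abundant. The sums overlapped, since *Ebf2E165X/+* mouse 1 was above *Ebf2+/+* mouse 3. Each of the 7 had a lower fitted value in *Ebf2E165X/+* mice. With a mouse left out, only *Cidec* changed sign, its log2 fold change running from −0.47 to 0.049. That of *Lep* ran from −0.69 to −0.020. In bulk tissue, fewer cells of a type and less RNA per cell cannot be told apart. The 8 markers of brown and beige adipocytes were led by the lipid droplet gene *Cidea*. They summed to 219, 253, and 262.8 CPM in *Ebf2+/+* mice and to 64.3, 72.7, and 114.5 CPM in *Ebf2E165X/+* mice, without overlap. Singly, *Cidea*, *Ucp1*, and *Kcnk3* separated the genotypes, and the other markers of this list overlapped. *Cox7a1* was at 4.14, 2.46, and 21.7 CPM in *Ebf2E165X/+* mice, against 12.5, 19.0, and 13.8 CPM in *Ebf2+/+* mice. A different pattern belonged to 1 library. The 8 skeletal muscle markers, with the myosin *Myh4* on top, summed to 39020 CPM in *Ebf2E165X/+* mouse 3, against 2801 and 661 CPM in the other *Ebf2E165X/+* mice and 1634, 6768, and 2586 CPM in *Ebf2+/+* mice. Results that rest on this library, or on *Ebf2+/+* mouse 1 for the acetate enzyme, are given below with and without it.

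Other lists varied less or varied within both genotypes. The 7 erythroid markers, led by *Hbb-bs*, summed to 2143 to 3329 CPM in *Ebf2+/+* mice and 2013 to 4593 CPM in *Ebf2E165X/+* mice. The 5 epithelial markers, led by *Krt5*, ranged from 1.93 to 69.5 CPM in *Ebf2+/+* mice and from 1.55 to 27.7 CPM in *Ebf2E165X/+* mice. Macrophage markers, led by *Lyz2*, summed to 1184 to 1493 against 1415 to 1566 CPM, and progenitor markers, led by *Cd34*, to 510.8 to 687.4 against 619.2 to 657.1 CPM. Lymphocyte markers, led by *Ms4a1*, reached 297.4 to 460.1 against 465.5 to 534.6 CPM, which did not overlap. Endothelial markers, led by *Pecam1*, summed to 957 to 1047 against 744.4 to 964.9 CPM. No marker on these lists was at 0 in all libraries.

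*Acsm3* (ENSMUSG00000030935), which encodes a mitochondrial enzyme of the medium-chain family, differed most between the genotypes among the chosen genes. The gene lies on the plus strand of GRCm38 at chr7:119760923-119787513. It stood at 17.9, 36.9, and 37.4 CPM in *Ebf2+/+* mice, from 2151, 3894, and 4633 counts, and at 6.20, 4.32, and 5.36 CPM in *Ebf2E165X/+* mice, from 717, 540, and 687 counts. All 3 *Ebf2E165X/+* libraries were below all 3 *Ebf2+/+* libraries, and *Ebf2+/+* mouse 1 was the low member of its group, with the mean of the other *Ebf2+/+* mice 2.08-fold above it. The means were 30.7 ± 11.1 and 5.29 ± 0.938 CPM (SD, *n* = 3), a log2 fold change of −2.54 (SE 0.28), or 5.81-fold lower. With edgeR the adjusted *P* was 0.119, above the threshold, whereas DESeq2 gave 7.48e-18. With other filters, scaling, limma-voom, or a mouse left out it ran up to 0.452, and of these only the fit without *Ebf2+/+* mouse 1 was below 0.05, at 0.0168. Exons of the antisense gene *Eri2* overlap *Acsm3*, and whether counting used strand is not stated in the sources used here. *Eri2* held between 1646 and 2023 counts in every library and so did not follow *Acsm3*.

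The sequence just upstream of 3 start sites is shown because these genes carry the main patterns: the largest difference (*Acsm3*), a high value in a single library (*Acss2*), and the highest level (*Acsl1*, at its more downstream start). Each run holds the 250 bases before the start in RefSeq (GRCm38.p6, plus strand, 5′ to 3′), and capitals mark a motif match. The windows are chr7:119760673-119760922, chr2:155517793-155518042, and chr8:46490716-46490965.
*Acsm3*: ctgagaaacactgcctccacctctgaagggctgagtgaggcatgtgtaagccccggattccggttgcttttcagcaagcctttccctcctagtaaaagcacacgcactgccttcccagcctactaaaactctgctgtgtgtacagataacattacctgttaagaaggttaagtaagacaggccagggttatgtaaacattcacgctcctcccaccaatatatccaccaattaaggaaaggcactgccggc
*Acss2*: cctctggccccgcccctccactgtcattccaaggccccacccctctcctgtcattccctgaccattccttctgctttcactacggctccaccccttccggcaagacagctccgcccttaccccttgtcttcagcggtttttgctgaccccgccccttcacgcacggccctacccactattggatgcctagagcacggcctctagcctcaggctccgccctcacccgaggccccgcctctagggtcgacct
*Acsl1*: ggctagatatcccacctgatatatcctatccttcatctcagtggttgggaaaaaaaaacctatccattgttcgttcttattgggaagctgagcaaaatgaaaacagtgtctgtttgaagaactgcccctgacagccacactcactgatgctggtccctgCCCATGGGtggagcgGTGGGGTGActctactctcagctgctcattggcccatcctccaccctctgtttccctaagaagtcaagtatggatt
The first capitals in the *Acsl1* window are an EBF core, 91 bases before the start, and the second are the minus-strand form of TCACNCCAC, a sterol-element core, with the first base 76 bases before the start.

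Motifs were sought on both strands of 12 promoter windows that RefSeq gives for 9 of the 10 genes, each from 250 bases before to 50 bases after a start. *Acss3* had no entry. The EBF palindrome, TCCC and GGGA with any 2 bases between them, was in none of the 12, against 0.904% of all 32851 promoter windows. A shorter core, CCC and GGG with A or T and then any base between them, which shares part of its matches with the palindrome, was searched after the data were seen and is held by 10.2% of windows. It matched in 2 of the 12, as CCCAAGGG in *Acsl3* at position −178 and as CCCATGGG in the *Acsl1* window shown, at position −91. The PPAR direct repeat was also not matched, either as 2 copies of AGGTCA with 1 base between them (0.0396% of windows) or in the looser form with 2 copies of AGGNCA (0.381%), which takes in the former. The sterol core TCACNCCAC (1.24% of windows) matched in *Acsl1* alone, at the start shown and not at its other, upstream start, and the longer sterol element, which is that core with C at the open base and an A before it (0.0913%), in none. The single-site motif of the estrogen-related receptors, TNAAGGTCA, held by 1.28% of windows, matched 1 of the *Acsl6* starts at position −167, as TGACCTTGA on the minus strand. The E box CACGTG, held by 7.15% of windows, matched in *Acsm5* at position −132. A missing match says only that these letters are not in these windows.

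*Acsm5* (ENSMUSG00000030972; chr7:119519463-119545551, plus strand), the other mitochondrial medium-chain enzyme, differed much less between the genotypes. Its values were 5.02, 5.59, and 5.60 CPM in *Ebf2+/+* mice and 4.98, 4.61, and 3.59 CPM in *Ebf2E165X/+* mice. The groups did not overlap, but the gap between the nearest libraries was small. The log2 fold change was −0.30 (SE 0.17; edgeR adjusted *P* = 0.783), and with a mouse left out it ran from −0.40 to −0.17, the latter without *Ebf2E165X/+* mouse 3. As a percentage of the summed adipocyte markers, *Acsm5* was at 0.0440, 0.0459, and 0.0580 in *Ebf2+/+* mice and at 0.0481, 0.0517, and 0.0533 in *Ebf2E165X/+* mice, where the groups overlapped and the mean was higher in *Ebf2E165X/+* mice. The make-up of the family therefore differed as well. On the scale of CPM per kb of exon, *Acsm3* made up 73.3%, 83.6%, and 83.7% of the summed ACSM level in *Ebf2+/+* mice and 48.9%, 41.9%, and 53.5% in *Ebf2E165X/+* mice. The sum itself was 4.95 to 9.05 CPM per kb in the first group and 2.03 to 2.57 in the second.

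**Figure D1:**
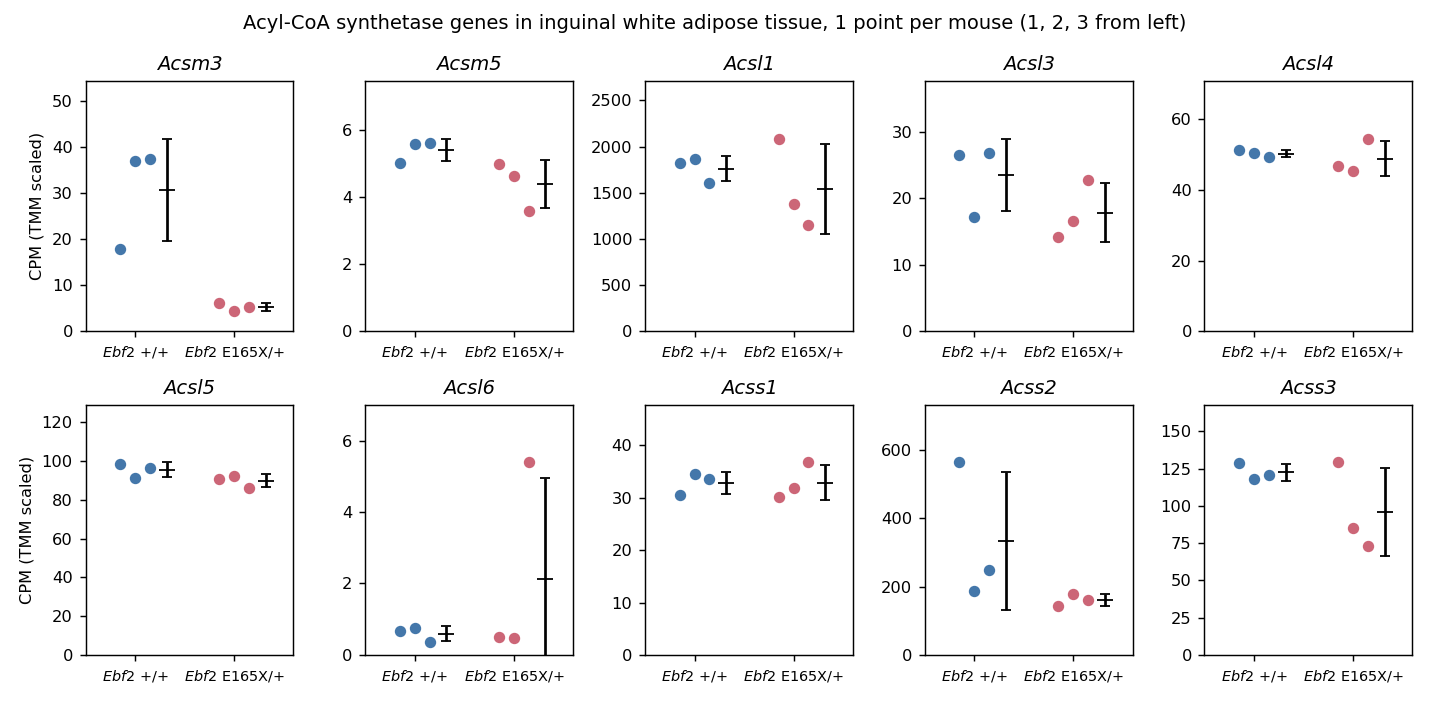
TMM-scaled CPM of the 10 acyl-CoA synthetase genes (vertical axes, linear from 0, each with its own range) in 3 *Ebf2+/+* and 3 *Ebf2E165X/+* mice, 1 point per mouse, with the mean and SD beside each group; the lower SD bar of *Acsl6* extends below 0 and is not drawn there. For *Acsm3* the *Ebf2E165X/+* points lie at 4.32 to 6.20 CPM, all below the *Ebf2+/+* points, whereas 1 mouse sets the high value of *Acss2* (563.5 CPM) and of *Acsl6* (5.39 CPM).

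Among the long-chain genes, *Acsl1* (ENSMUSG00000018796; chr8:46471037-46536051, plus strand) encodes the main long-chain synthetase of adipocytes and had the highest level of the 10 per length. It stood at 1817, 1861, and 1603 CPM in *Ebf2+/+* mice and at 2084, 1380, and 1145 CPM in *Ebf2E165X/+* mice. The *Ebf2E165X/+* values lay on both sides of the *Ebf2+/+* range, with a coefficient of variation of 31.8% against 7.85%. The log2 fold change was −0.20 (SE 0.24; edgeR adjusted *P* = 0.823). It was −0.48 without *Ebf2E165X/+* mouse 1 and −0.02 without *Ebf2E165X/+* mouse 3. Relative to the summed adipocyte markers, *Acsl1* was 15.9%, 15.3%, and 16.6% in *Ebf2+/+* mice and 20.1%, 15.5%, and 17.0% in *Ebf2E165X/+* mice, so that mice 2 and 3 of the second group came close to the *Ebf2+/+* values on this scale. On the same scale *Acsm3* remained apart, at 0.157%, 0.303%, and 0.387% against 0.0598%, 0.0485%, and 0.0796%.

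*Acsl3*, whose product sits on the endoplasmic reticulum and nascent lipid droplets, stood at 26.4, 17.2, and 26.8 CPM in *Ebf2+/+* mice and at 14.1, 16.5, and 22.7 CPM in *Ebf2E165X/+* mice. The groups overlapped, and the log2 fold change was −0.40 (SE 0.22), with −0.26 without *Ebf2E165X/+* mouse 1 and −0.62 without mouse 3. An exon of *Utp14b* lies on the same strand, and that gene held 612 to 874 counts per library, so some reads may be shared between them. *Acsl4*, which prefers arachidonate and other polyunsaturated acids, stood at 51.2, 50.4, and 49.3 CPM against 46.7, 45.5, and 54.5 CPM (log2 fold change −0.04, SE 0.08). *Acsl5*, found on mitochondria and the endoplasmic reticulum, stood at 98.7, 91.5, and 96.6 CPM against 90.9, 92.6, and 86.2 CPM (−0.09, SE 0.07). Neither *Acsl4* nor *Acsl5* separated the genotypes, and both varied little among mice, by 1.20-fold and 1.15-fold from the lowest to the highest library. The antisense gene *Zdhhc6* overlaps exon sequence of *Acsl5*. It held 4232 to 5212 counts per library, where *Acsl5* held 9648 to 11972, and the strand setting of the counting is not known. *Acsl3* is at chr1:78657825-78707743 and *Acsl5* at chr19:55251938-55297720 on the plus strand, and *Acsl4* at chrX:142317993-142390535 on the minus strand.

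*Acsl6* (ENSMUSG00000020333; chr11:54303798-54364756, plus strand), a long-chain gene best known from brain, was low in 5 of the libraries. It held 79, 80, and 45 counts in *Ebf2+/+* mice and 59, 58, and 690 counts in *Ebf2E165X/+* mice, or 0.658, 0.759, and 0.363 CPM against 0.510, 0.464, and 5.39 CPM. *Ebf2E165X/+* mouse 3, the library with the high muscle markers, was 11.1-fold above the mean of the other *Ebf2E165X/+* mice. With it the log2 fold change was 1.84 (SE 0.91), and without it −0.28 (SE 0.36; edgeR adjusted *P* = 0.861). DESeq2 gave *Acsl6* no *P* value. The antisense transcript *Gm12224*, which overlaps an exon of *Acsl6*, held 212 counts in the same library and 4 to 23 in the rest, and without knowledge of the strand setting these reads cannot be told apart. *Cpt1b*, the muscle form of the enzyme that hands acyl groups to carnitine for mitochondrial import, was also high in that library, at 71.6 CPM against 8.16 and 4.92 CPM in the other *Ebf2E165X/+* mice, 11-fold above their mean. In *Ebf2+/+* mice it was at 29.2, 46.9, and 42.5 CPM. Its log2 fold change was −0.48 (SE 0.88) with that library and −2.60 (SE 0.25; edgeR adjusted *P* = 0.0469) without it, and with each of the other mice left out it lay between −0.67 and 0.014 with edgeR adjusted *P* values up to 0.998. The part of the muscle signal in these values was not tested.

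**Figure D2:**
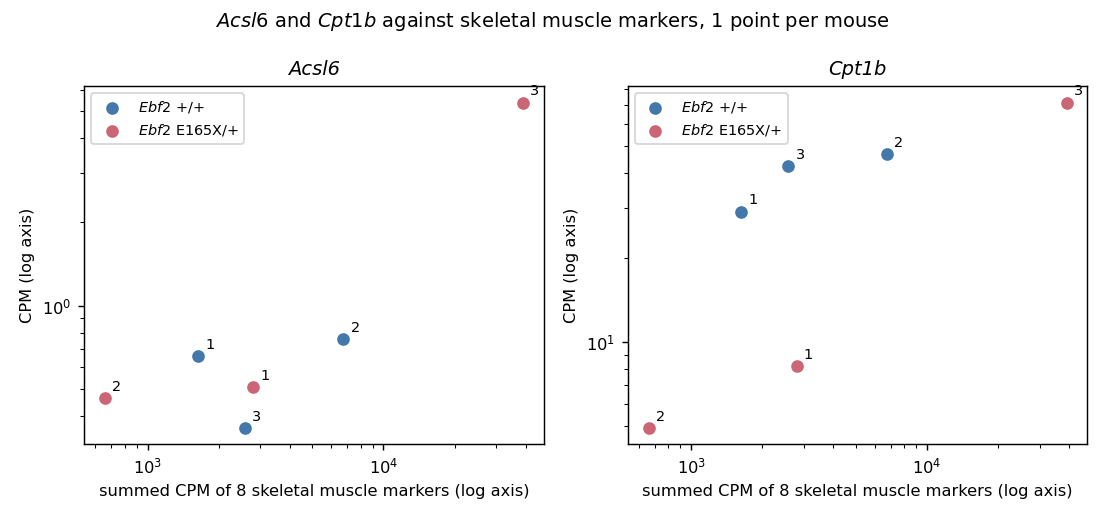
CPM of *Acsl6* (left) and *Cpt1b* (right) against the summed CPM of 8 skeletal muscle markers, with log axes and 1 numbered point per mouse. *Ebf2E165X/+* mouse 3 stands alone at 39020 CPM of markers, with 5.39 CPM of *Acsl6* and 71.6 CPM of *Cpt1b*, whereas the other *Acsl6* points lie between 0.363 and 0.759 CPM.

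Of the short-chain genes, *Acss2* (ENSMUSG00000027605; chr2:155517948-155585724, plus strand) encodes the cytosolic and nuclear enzyme that makes acetyl-CoA from acetate. It stood at 563.5, 187.0, and 248.6 CPM in *Ebf2+/+* mice and at 142.7, 178.0, and 161.6 CPM in *Ebf2E165X/+* mice. The groups did not overlap, but *Ebf2+/+* mouse 1 was 2.59-fold above the mean of the other *Ebf2+/+* mice, and the lowest *Ebf2+/+* library was only slightly above the highest *Ebf2E165X/+* library. The means were 333.0 ± 201.9 and 160.8 ± 17.7 CPM (SD, *n* = 3), with a log2 fold change of −1.05 (SE 0.37; edgeR adjusted *P* = 0.783, DESeq2 0.545). Without *Ebf2+/+* mouse 1 it was −0.45 (SE 0.15; edgeR adjusted *P* = 0.908), and over all mice left out in turn it ran from −1.35 to −0.45. *Acss2* therefore made up 68.7% of the summed ACSS level per kb in *Ebf2+/+* mouse 1, and between 35.7% and 49.6% in the other 5 libraries. The antisense genes *Gss*, *Ggt7*, and *Acss2os* overlap its exons. *Acss2os* was listed at 0 in all libraries and the others held at most 2513 counts in a library, where *Acss2* held at least 16514.

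The 2 mitochondrial short-chain genes followed other courses. *Acss1* (chr2:150618105-150668500, minus strand), which makes acetyl-CoA inside mitochondria, stood at 30.4, 34.5, and 33.5 CPM in *Ebf2+/+* mice and at 30.1, 31.8, and 36.7 CPM in *Ebf2E165X/+* mice. The group means were 32.8 ± 2.12 and 32.9 ± 3.42 CPM (SD, *n* = 3), and the sign of the log2 fold change (0.0032, SE 0.10) depended on the scaling of the libraries. *Acss3* (chr10:106933517-107123668, minus strand), which prefers propionate, stood at 129.0, 118.2, and 120.4 CPM in *Ebf2+/+* mice and at 129.1, 85.0, and 73.1 CPM in *Ebf2E165X/+* mice. As with *Acsl1*, *Ebf2E165X/+* mouse 1 was at the top of its group and mice 2 and 3 were below every *Ebf2+/+* mouse. The log2 fold change of *Acss3* was −0.36 (SE 0.19; edgeR adjusted *P* = 0.783), and −0.63 without *Ebf2E165X/+* mouse 1 or −0.19 without mouse 3. As a percentage of the adipocyte markers it was 1.12 ± 0.139 in *Ebf2+/+* mice and 1.10 ± 0.147 in *Ebf2E165X/+* mice (SD, *n* = 3).

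Counted together, 8 of the 10 genes had a lower fitted value in *Ebf2E165X/+* mice, beside 43.9% of the 18905 genes that held 10 or more counts in each library, a floor that all 10 passed. Their median log2 fold change was −0.25, beside 0.03 for those 18905 genes. No member was called by edgeR or by limma-voom, and edgeR called 3 genes in all (0.00918% of those tested). At an unadjusted edgeR *P* under 0.05 there were 2 members, *Acsm3* and *Acss2*, beside 4.77% of all genes tested. DESeq2 called 1 member, *Acsm3*, beside 0.61% of the 16078 genes to which it gave an adjusted *P*. *Acsm3*, *Acsm5*, and *Acss2* had all *Ebf2E165X/+* libraries below all *Ebf2+/+* libraries, as did 6.78% of genes, and no member had them all above, as did 6.66%. On the scale of the adipocyte markers, each of which had a lower fitted value in *Ebf2E165X/+* mice, the tally differed, and 3 of the 10 genes (*Acsm3*, *Acss2*, and *Acss3*) had a lower mean in *Ebf2E165X/+* mice, beside 6.24% of the same 18905 genes, and the groups of *Acsm3* alone did not overlap, beside 0.296% of those genes with all *Ebf2E165X/+* libraries lower. *Acsl4*, at 0.458% against 0.590%, *Acsl5*, at 0.872% against 1.07%, and *Acss1*, at 0.299% against 0.397%, had the higher mean in *Ebf2E165X/+* mice on that scale. All 3 were highest in *Ebf2E165X/+* mouse 3, at 0.809%, 1.28%, and 0.545%. In mouse 2 of that genotype they were at 0.51%, 1.04%, and 0.356%. In mouse 1 they were at 0.451%, 0.878%, and 0.291%, within the *Ebf2+/+* ranges. *Acsl3* was at 0.136%, 0.185%, and 0.337% in *Ebf2E165X/+* mice, against a mean of 0.217% in *Ebf2+/+* mice. *Acsl6* was at 0.00492%, 0.00521%, and 0.0799%, against a mean of 0.00525%. Both thus had the higher mean only through *Ebf2E165X/+* mouse 3, the library with the lowest adipocyte marker sum. This scale was added after the values were seen. Since the members were chosen with these values known, nothing is read from the counts.

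**Figure D3:**
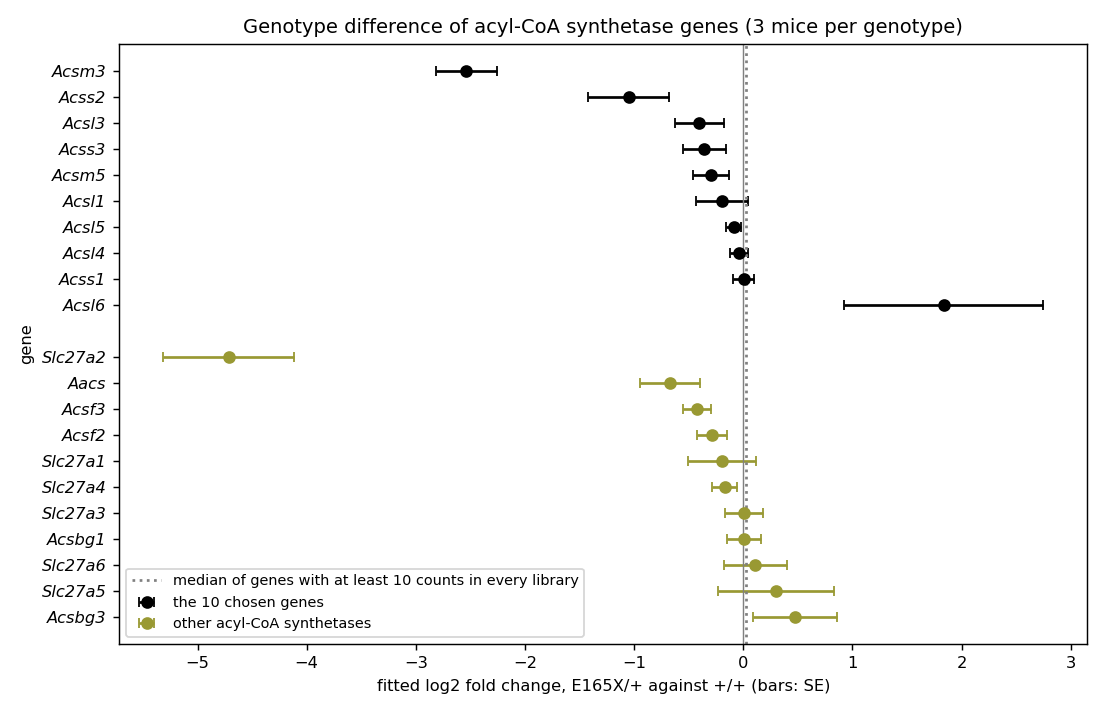
Fitted log2 fold change of *Ebf2E165X/+* against *Ebf2+/+* (horizontal axis, bars are SE, 3 mice per genotype) for the 10 chosen genes in black and 11 other acyl-CoA synthetase genes in olive, with the median of the 18905 genes above the count floor as a dotted line. *Acsm3* at −2.54 and *Slc27a2* at −4.72 lie farthest to the left, and *Acsl6* at 1.84 has the widest bar among the chosen genes.

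The levels of the genes can be compared per kb of exon in the annotation, which assumes reads along the whole transcript. On that scale *Acsl1* stood first at a mean of 157.3 CPM per kb over the 6 libraries, and its range did not overlap that of any other member. *Acss2* (24.3), *Acsl5* (19.1), and *Acss3* (15.2 CPM per kb) came next, and neighbors in this order overlapped. Within *Ebf2E165X/+* mice, *Acsl5*, at a mean of 18.5 CPM per kb, stood above *Acss2*, at 15.8 CPM per kb. *Acsl4* (9.18) and *Acss1* (7.96 CPM per kb) overlapped each other and stood apart from *Acss3* above and *Acsl3* below, though the highest *Acsm3* library (7.57) was above the lowest *Acss1* library (7.30). *Acsl3* (4.73), *Acsm3* (3.65), and *Acsm5* (1.29 CPM per kb) formed a further chain of overlapping neighbors, and *Acsl6* (0.137 CPM per kb) lay below them all. In *Ebf2+/+* mice *Acsm3* ranked 7 of 10, above *Acsl3*, at 6.23 ± 2.25 CPM per kb, and in *Ebf2E165X/+* mice it ranked 9, below *Acsm5*, at 1.07 ± 0.190 against 1.16 ± 0.189 CPM per kb (SD, *n* = 3). *Acsl1* was 76.5% to 86.7% of the summed ACSL level and 58.8% to 73.3% of the summed level of all 10. If reads came only from transcript ends, CPM without division by length would be the fitting scale, and *Acss3* and *Acsl5* would exchange places in the order. In *Ebf2E165X/+* mice *Acsm3*, at a mean of 5.29 CPM, would then stand above *Acsm5*, at 4.39 CPM. *Acss2*, at 160.8 CPM, would also stand above *Acsl5*, at 89.9 CPM, in those mice.

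**Figure D4:**
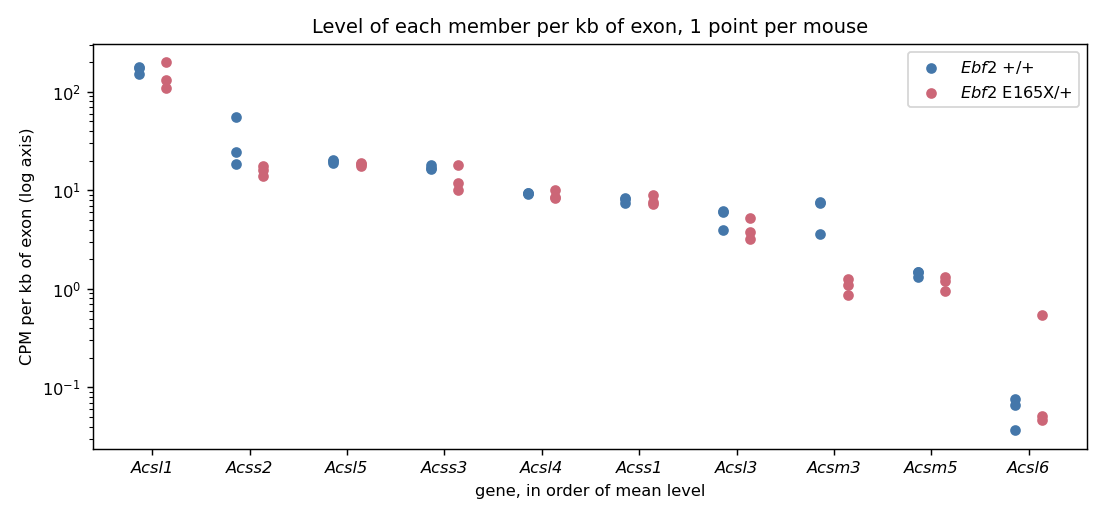
CPM per kb of exon (log axis) of the 10 genes in order of their mean level, with 1 point per mouse, *Ebf2+/+* on the left and *Ebf2E165X/+* on the right of each gene. *Acsl1* lies between 109.3 and 198.8 CPM per kb, and *Acsl6* between 0.0366 and 0.543; the points of *Acsm3* form separate groups.

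The remaining genes of the enzyme class were listed too, among them the other ACSM genes, the fatty acid transport proteins (*Slc27a*), and single enzymes for special acids. Of these 15 genes, 13 had a count in some library and 9 reached 10 counts in each of them. EdgeR and limma-voom called 0 of them, DESeq2 called 1, and 3 had an unadjusted edgeR *P* under 0.05, all lower in *Ebf2E165X/+* mice, beside 0.61% of the genes with a DESeq2 adjusted *P* and 4.77% of all genes tested. *Slc27a2*, a transport protein and synthetase for very long chains, was the one called by DESeq2. It stood at 1.41, 5.74, and 5.99 CPM in *Ebf2+/+* mice, from 169, 605, and 743 counts, and at 0.199, 0.0721, and 0.226 CPM in *Ebf2E165X/+* mice, from 23, 9, and 29 counts. As with *Acsm3*, the groups were far apart and *Ebf2+/+* mouse 1 was the low member of its group. The log2 fold change was −4.72 (SE 0.60; edgeR adjusted *P* = 0.229, DESeq2 3.72e-07), and a value of this size from so few counts in 1 group is imprecise.

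The other 2 with an unadjusted *P* under 0.05 handle short acids. *Acsf3*, the mitochondrial malonyl-CoA synthetase, stood at 37.7, 28.3, and 29.6 CPM in *Ebf2+/+* mice and at 22.5, 26.7, and 22.0 CPM in *Ebf2E165X/+* mice, without overlap (log2 fold change −0.42, SE 0.13; edgeR adjusted *P* = 0.783). *Aacs*, which activates the ketone body acetoacetate in the cytosol, stood at 283.1, 147.7, and 173.5 CPM against 109.9, 166.8, and 103.2 CPM (−0.67, SE 0.27). Like *Acss2*, *Aacs* was high in *Ebf2+/+* mouse 1, 1.76-fold above the mean of the other *Ebf2+/+* mice, and without that mouse its log2 fold change was −0.36 (SE 0.21). *Slc27a1*, the fatty acid transport protein of adipocytes and muscle, resembled *Acsl1*, with 453.3, 383.2, and 400.2 CPM in *Ebf2+/+* mice and 557.2, 302.4, and 219.1 CPM in *Ebf2E165X/+* mice (log2 fold change −0.20, SE 0.31, with −0.66 without *Ebf2E165X/+* mouse 1 and 0.06 without mouse 3).

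None of the remaining listed genes had an unadjusted edgeR *P* under 0.05. *Acsf2* was at −0.29 (SE 0.14), or −0.16 without *Ebf2E165X/+* mouse 3, and *Slc27a4* at −0.17 (SE 0.12), or −0.0506 without *Ebf2+/+* mouse 1, whereas *Slc27a3* (0.0072), *Acsbg1* (0.0084), and *Slc27a6* (0.11) were near or above 0 and changed sign with the mouse left out. *Acsbg3* (0.47, SE 0.38) held no more than 38 counts in any library and *Slc27a5* (0.30, SE 0.53), the liver enzyme of bile acid activation, no more than 14. Without *Ebf2E165X/+* mouse 1, *Slc27a5* was at −0.22 and *Acsbg3* at 0.74, and without *Ebf2E165X/+* mouse 3 *Acsbg3* was at 0.20. *Acsm1* and *Acsbg2* held at most 4 counts in a library, and *Acsm2* and *Acsm4* were at 0 in all 6. Of the medium-chain genes listed, *Acsm3* and *Acsm5* were thus the 2 with more than a trace of expression in this tissue.

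Acyl-CoA is passed on to enzymes of import, oxidation, esterification, and hydrolysis, and 26 genes for these steps were listed. Of the 26, 24 had a lower fitted value in *Ebf2E165X/+* mice, beside the 43.9% of all genes given above, with a median log2 fold change of −0.44. Like the members, they were listed with results of these libraries known. EdgeR and limma-voom called 0, DESeq2 called 6, and 16 had an unadjusted edgeR *P* under 0.05, 15 of them lower. Over all genes the share was 0.61% for DESeq2 calls and 4.77% for the unadjusted *P*. In 11 of the 26 all *Ebf2E165X/+* libraries were below all *Ebf2+/+* libraries, beside 6.78% of genes. By role, the median was −0.68 for the 4 acyl-CoA dehydrogenases of the first oxidation step, −0.84 for 6 genes of acetyl-CoA and malonyl-CoA handling, −0.46 for 5 genes of mitochondrial import, −0.35 for 6 of esterification, and −0.29 for 4 thioesterases. These medians were not equally steady: for acetyl-CoA and malonyl-CoA handling the median was −0.42 without *Ebf2+/+* mouse 1, for import −0.26 without *Ebf2E165X/+* mouse 2, and for esterification −0.57 without *Ebf2E165X/+* mouse 1 and −0.22 without mouse 3, whereas for the dehydrogenases it stayed between −0.76 and −0.61 with any mouse left out. The 4 dehydrogenases (*Acadvl*, *Acadl*, *Acadm*, *Acads*) were among those 11. Values on the scale of the adipocyte markers are not given for the 26 genes. The part of the lower marker levels in their differences was not tested. *Dbi*, the acyl-CoA binding protein, was at −0.42 (SE 0.16). *Cpt1a*, the carnitine transferase of liver type, was the only listed gene with all *Ebf2E165X/+* libraries above all *Ebf2+/+* libraries, at 80.4, 84.1, and 86.8 CPM against 114.8, 104.8, and 94.1 CPM (log2 fold change 0.32, SE 0.09; edgeR adjusted *P* = 0.783). *Cpt1a*, *Cpt1b*, *Dbi*, and the dehydrogenases were singled out after their values were seen.

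Over all 6 libraries, the 3 genes of that list with the largest log2 fold changes, *Acly*, *Acacb*, and *Fasn*, serve the synthesis of fatty acids from acetyl-CoA or its control. *Acly*, which makes acetyl-CoA from citrate and so supplies the same pool as *Acss2*, stood at 3690, 949.8, and 1433 CPM in *Ebf2+/+* mice and at 542.8, 1119, and 845.8 CPM in *Ebf2E165X/+* mice (log2 fold change −1.28, SE 0.50). *Fasn*, fatty acid synthase, stood at 12650, 5101, and 6660 CPM against 3701, 5554, and 3454 CPM (−0.94, SE 0.39). In both, *Ebf2+/+* mouse 1 was the highest library and the other mice of the genotypes overlapped, as seen with *Aacs*. Without that mouse the log2 fold change was −0.53 (SE 0.33) for *Acly* and −0.49 (SE 0.29) for *Fasn*, which then ranked 8 and 9 of the 26, and without *Ebf2E165X/+* mouse 3 *Cpt1b* ranked first. *Acacb*, the acetyl-CoA carboxylase whose product malonyl-CoA restrains mitochondrial import, separated the genotypes, at 371, 252.5, and 309.1 CPM against 141.8, 134.2, and 176 CPM. Its log2 fold change was −1.05 (SE 0.17; edgeR adjusted *P* = 0.353, DESeq2 3.72e-07), and with a mouse left out it ran from −1.19 to −0.91.

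Likeness among the genes was measured as the root mean square difference of centered log2 CPM over the 6 libraries, where 0 would mean the same relative values in every mouse. Among pairs of the 10, *Acsl4* and *Acss1* were closest (0.0777), followed by *Acsl1* and *Acss3* (0.108) and by *Acsl4* and *Acsl5* (0.118). *Acsm3* and *Acsl6* were farthest apart (2.11). The 2 closest pairs crossed the families, the third lay within ACSL, and *Acsm3* was 1.14 from its family member *Acsm5*.

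The same measure was applied to 14865 genes with 10 or more counts in each library and a mean of at least 1 CPM, for the member of each family with the highest mean CPM. Nearest to *Acsm3* were *Cidea* (0.545), *Adtrp* (0.617), which encodes a lipid hydrolase, the fatty acid receptor gene *Ppara* (0.626), the proton channel gene *Otop1* (0.692), and *Cpn2* (0.698), a carboxypeptidase subunit. *Cidea* was at 82.4, 102.5, and 105.8 CPM in *Ebf2+/+* mice and at 7.97, 9.61, and 13.2 CPM in *Ebf2E165X/+* mice, and it was 1 of the genes called by edgeR (adjusted *P* = 0.00462). *Cidea* is also on the list of brown and beige markers, whose sum was lower in *Ebf2E165X/+* mice, and the share of that cell type in the *Acsm3* values was not tested.

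Nearest to *Acsl1* were *Katnal2* (0.0585), *Cox6b2* (0.0608), *Pde1a* (0.0616), *Dgat1* (0.0637), and *Gm3448* (0.0694). *Dgat1* encodes an enzyme that adds the last acyl-CoA to triglyceride, and at 183.9, 183.4, and 173.2 CPM against 194.4, 135.1, and 114.8 CPM it had the same order of *Ebf2E165X/+* mice as *Acsl1*. Nearest to *Acss2* were *Ttc25* (0.099), *Lss* (0.102), *Adcy10* (0.12), *Cyp51* (0.126), and *Sqle* (0.128). *Lss*, *Cyp51*, and *Sqle* encode enzymes of cholesterol synthesis, and each was highest in *Ebf2+/+* mouse 1, at 77.6, 109.3, and 57.1 CPM, against 22.2 to 61.2 CPM over these genes in the other *Ebf2+/+* mice. These likenesses rest on 6 libraries and, for *Acss2*, mostly on 1 of them. The neighbors were picked by these same values, so the pattern they share follows from the choice.

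**Figure D5:**
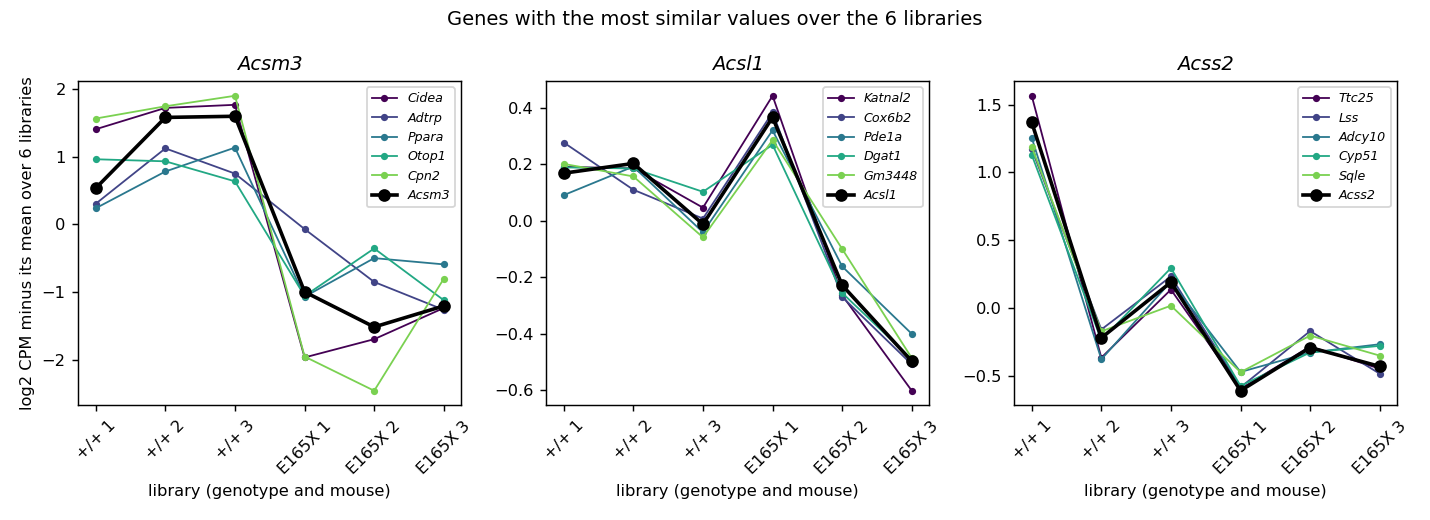
Log2 CPM minus its mean over the 6 libraries (vertical axes, each with its own range) of *Acsm3*, *Acsl1*, and *Acss2* in black, each with the 5 genes of most similar values in color, by library from left to right; lines join the values of a gene and show no order in time. *Acsm3* and its neighbors divide by genotype, the *Acsl1* group varies among *Ebf2E165X/+* mice, and the *Acss2* group peaks in *Ebf2+/+* mouse 1.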

How the data were processed

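Per the study's methods, 3′ mRNA libraries (QuantSeq) were sequenced from IWAT RNA and annotated with ENSEMBL 109, whereas the sample labels name an NEB kit. The submitters' processing notes list cutadapt 4.8, FastQC 0.11.8, STAR 2.7.8a, RSEM 1.3.3, MultiQC 1.20, and GRCm38. The authors deposited 1 table of expected counts per gene, without normalization. Each of the 332946 values was a whole number, and rounding left them as they were. The labels give 1 mouse per library and no litter or batch, so *P* values measure the spread between these samples, which may be partly technical.

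Genes not at 0 throughout (a count of 1 or more in any library) were tested in R 4.3.3 with edgeR 4.0.16 (TMM, glmQLFit, glmQLFTest, genotype only). DESeq2 1.42.0, the tool of the study, limma-voom (limma 3.58.1), DESeq2 size factors, filterByExpr, a floor of 10 counts per library, a replicate block, and each mouse left out in turn were alternatives. With at least 106820505 counts per library, the number of mice limits precision more than counting error does, except for genes with few counts. Log2 CPM used a prior count of 2. Gene positions and exon lengths came from GENCODE M21 (GRCm38), and promoter sequences from RefSeq. Levels, motifs, and figures were computed with Python 3.11.15, numpy 2.4.6, pandas 2.3.3, scipy 1.17.1, and matplotlib 3.10.9.

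The members and lists were chosen with earlier results of these data known. Named genes are the 10 members, *Ebf2*, other synthetases with at least 10 counts in any library, the 3 acyl-CoA fate genes with the largest absolute log2 fold change, the 5 nearest genes of the member with the highest mean CPM in each family, and the most abundant gene of each marker list. Of the marker lists, 1 is not reported here. Names outside this rule were added after their values were seen. Protein sequences were not analysed here.

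On simulated counts for 3 libraries per genotype, 200 of 31641 genes were given a log2 fold change of 2; edgeR recovered 153 and called 30 of 31441 unchanged genes, DESeq2 recovered 167 and called 84, and limma-voom recovered 133 and called 9.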

Additional observations from a re-analysis of the deposited data

How the results depend on the processing

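Over the whole table, edgeR called 3 genes, DESeq2 98, and the fits that left out 1 mouse between 1 and 11. Members called numbered 0 in edgeR, 1 in DESeq2, and 0 to 1 with a mouse left out, the 1 being *Acsm3* without *Ebf2+/+* mouse 1. DESeq2 called 1 other synthetase and 6 acyl-CoA fate genes, where edgeR called 0 of each, and leaving out a mouse gave 0 and 0 to 1. *Cpt1b* was the 1, without *Ebf2E165X/+* mouse 3. The cause of the difference between the tools was not tested. Signs near 0 changed for *Acss1*, whose log2 fold change was −0.0055 in DESeq2, −0.0057 with DESeq2 size factors, −0.017 with a floor of 10 counts in every library, and −0.0835 to 0.0619 with a mouse left out. *Acsl4* ran from −0.13 to 0.0079 (without *Ebf2E165X/+* mouse 2) and *Acsl6* from −0.28 (without *Ebf2E165X/+* mouse 3) to 2.31. Dividing by length exchanged the ranks of *Acsl5* (3) and *Acss3* (4). The number of members lower in *Ebf2E165X/+* mice ran from 7 to 10 and their median log2 fold change from −0.33 to −0.18 over the mice left out. As a percentage of the adipocyte markers, a scale chosen after seeing the data, 3 of the 10 had a lower mean in *Ebf2E165X/+* mice, against 8 in the edgeR fit. On that scale *Acsl3* and *Acsl6* had the higher mean only through *Ebf2E165X/+* mouse 3. Same-numbered mice had correlations of their deviations from the group means of 0.153, −0.278, and −0.162. Deviations from a mean of 3 mice are tied to each other, so these values cannot decide whether the numbers pair mice. The labels do not say. With the replicate block, 2 genes and 0 members were called, and the median of the members was −0.28. *Acsm3* in that fit had an edgeR adjusted *P* of 0.862.

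With 3 mice per genotype, exact permutation tests cannot go below *P* = 0.1, and differences the size of the spread in *Acsl1*, *Acss2*, or *Acss3* are not resolved. Low counts limit *Acsl6* and *Slc27a2*. The levels of adipocyte, beige, and muscle markers differed among libraries, and the part of this in each gene was not tested.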
